A study of Homo sapiens with 6 samples.

Results

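The genes examined here are 48 components of the DNA replication machinery, from the proteins that mark origins to those that copy, join and repackage DNA at the fork. They were chosen by gene symbol, and no measured value enters that rule, but earlier results of these data were known at the time. All 48 were found among the 23710 gene symbols counted in each library. RNA sequencing libraries of K562 cells, a human line established from a chronic myelogenous leukaemia, were made from cells given 3FM-dC at 20 µM together with THU at 2 mM for 24 h (3 libraries) and from cells given DMSO, the solvent of both compounds, over the same time (3 libraries). The cells of both groups were of a single purchased line, at passages 13 to 16 in medium with 10% serum. 3FM-dC and THU were never given apart, so their effects cannot be told apart. The question set by the design was which transcripts 3FM-dC alters, in work that the series title places around an activator of TET2.

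DNA replication begins at origins bound by the origin recognition complex. With the licensing factors CDC6 and CDT1, this complex loads a ring of MCM subunits, which is inert until the kinase of CDC7 and DBF4 acts on it and CDC45 and the GINS complex join it to form the moving helicase. Polymerase alpha with primase then starts each strand, polymerases epsilon and delta extend it on the PCNA clamp, and FEN1 and LIG1 finish the short fragments of the lagging strand. In cycling cells many of these genes are transcribed under E2F factors ahead of S phase, and K562 cells in culture cycle continuously.

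The libraries held 19052821, 20176827 and 20737363 gene counts after 3FM-dC plus THU and 18610733, 18408826 and 22750278 after DMSO. Values below are CPM, gene counts scaled to a common library size with TMM factors. Every member was well covered, with at least 415 counts in every library, and all 48 passed the count filter. Labels do not say whether the replicates came from separate cultures, so p-values reflect only how these libraries vary, possibly for technical reasons. All 12 listed K562 genes were detected, including GATA1 and the embryonic and fetal globins. Of these, 9 were lower and 2 higher after 3FM-dC plus THU, against 32.7% and 33.8% of all genes tested (edgeR, adjusted p under 0.05). Their summed level was between 4238 and 4433 CPM in 3FM-dC plus THU libraries and between 7727 and 7916 CPM in DMSO libraries. Of the 6 lymphoid and the 6 fibroblast and endothelial markers, MS4A1, CD2 and CDH5 had no count in any library. The lymphoid list summed to between 9.57 and 11.3 CPM after 3FM-dC plus THU and between 7.88 and 8.98 CPM after DMSO, and the other list to between 6.996 and 11.6 CPM after 3FM-dC plus THU and between 10.3 and 13.95 CPM after DMSO. The 6 epithelial markers, with KRT5 at 0, summed to between 973 and 1107 CPM after 3FM-dC plus THU and between 844 and 855 CPM after DMSO. Of the 4 that were tested, KRT8 and KRT18 were higher (log2 fold changes 0.60 and 0.40), and EPCAM and KRT19 lower (-0.72 and -0.91). The part that these shifts play in the results below was not tested.

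Replication genes were on the whole lower in 3FM-dC plus THU cells, by modest amounts. By edgeR's quasi-likelihood test with an adjusted p under 0.05 over all genes, 27 of the 48 members (56.2%) were lower, against 32.7% of the 12339 genes tested. Another 5 members (10.4%) were higher, against 33.8% of all genes tested. The other 16 did not pass. Changes in either direction were called for 66.7% of members, close to the 66.4% of all genes. These shares were not matched for expression level. No member averaged below 23.43 CPM in either group, while the genes tested reach down to the count filter. Over all genes tested, a higher DMSO level tended to go with a lower fold change (Spearman rho -0.43, DMSO libraries entering both measures). The part of level in the members' shares was not tested. With a minimum of 5 CPM, which left 9791 genes, 24 members were lower and 7 higher. The shares of all genes called at that minimum are not given. The median log2 fold change there was -0.107 over members and 0.007 over all genes. In bulk RNA, fewer cells in S phase and less RNA per cell cannot be told apart. In the main comparison, the median log2 fold change was -0.15 over the members and 0.01 over all genes tested. No member changed 2-fold. The median size of a called change was 0.30 on the log2 scale for members and 0.46 for all called genes, of which 19.1% changed at least 2-fold. The members took up 0.710%, 0.705% and 0.706% of gene counts in 3FM-dC plus THU libraries, against 0.774%, 0.774% and 0.783% in DMSO libraries, by raw counts.

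**Figure D1:**
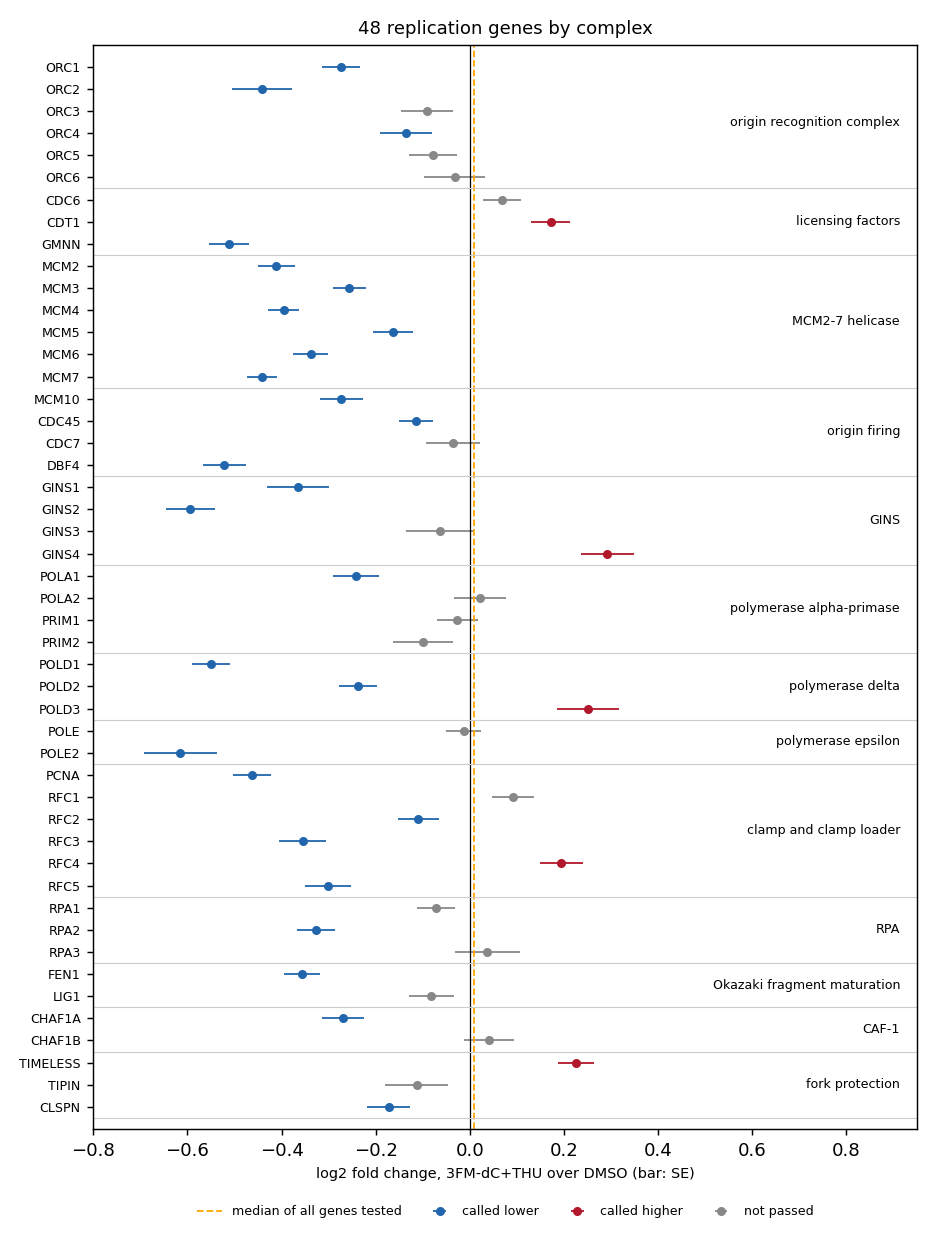
Log2 fold change of each of the 48 genes, 3FM-dC plus THU over DMSO, on the x axis, with its standard error as a bar, grouped by complex. Blue points are the 27 genes called lower, red points the 5 called higher (CDT1, GINS4, POLD3, RFC4 and TIMELESS) and grey points the 16 that did not pass. The dashed line is the median of all genes tested, 0.01. All 6 MCM helicase genes lie left of it.

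CPM values of 38 members did not overlap between the groups, against 70.0% of all genes tested. In 31 of them 3FM-dC plus THU libraries were all below DMSO libraries, against 34.5% of all genes tested, and in 7 all above, against 35.5%. Percent changes of the 27 lower members lay between -34.7% and -7.31%. The 5 higher members rose by between 12.7% and 22.5%. The 16 that did not pass lay between log2 fold changes of -0.11 and 0.09. With libraries scaled by total counts instead of TMM, 22 members were lower (25.8% of all genes) and 8 higher (41.0% of all genes, and 66.8% in either direction). The lower share of the called members was thus 73.3% in place of 84.4%. All genes moved as well, with 25.8% called lower in place of 32.7%. The median log2 fold change went from -0.149 to -0.058 over members and from 0.013 to 0.105 over all genes tested. DESeq2 called 27 members lower and 5 higher, against 31.7% and 31.7% of all genes and 63.4% in either direction. Tested against a minimum fold change of 1.2 (edgeR's glmTreat), 15 members were lower, against 17.2% of all genes, and 0 higher, against 21.4% of all genes (38.6% in either direction), also 0 at an unadjusted p under 0.05.

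Some counts are less certain than others. Annotation names pseudogenes for 7 members (DBF4, POLD2, PCNA, RFC3, RFC5, RPA2 and FEN1), whose reads the counting could have split. Exons of 11 members overlap those of a counted gene on the opposite strand, as MCM7 does with AP4M1 over 392 bases and ORC4 with ACVR2A over 430 bases, and no source used here says how strand entered the counting.

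Letters known as E2F sites were common just ahead of these genes. RefSeq windows of 300 bases (250 before and 50 after a gene's start, build GRCh38.p14) were at hand for 42 members, 9 of them with more than 1 window. The E2F letters TTTCCCGC, TTTCGCGC, TTTGCCGC or TTTGGCGC, searched on both strands with overlapping matches allowed, occurred in at least 1 window of 21 of the 42 (50%). The same letters occurred for 3.99% of all 27305 genes with a window and for 6.72% of the 8946 of these that were tested. CCAAT occurred for 59.5% of members and 43.6% of genes tested, the E-box CACGTG for 19.0% and 12.9%, and TTTGAA, the letters of the CHR element, for 2.38% and 13.2%. These matches are letters in a window and were not shown to be bound. By call, the E2F letters occurred for 12 of 24 members that were lower, 8 of 15 that did not pass and 1 of 3 that were higher. The windows of 7 members with these letters are shown because their calls differ. MCM7, PCNA and GMNN have other windows without the letters, which are not printed. MCM6, MCM7, PCNA, GINS2 and GMNN were lower, CDC6 did not pass and CDT1 was higher. Capitals mark the E2F letters, on either strand, and sequences run 5′ to 3′ along the gene's strand.
MCM6, chr2:135876394-135876693, minus strand: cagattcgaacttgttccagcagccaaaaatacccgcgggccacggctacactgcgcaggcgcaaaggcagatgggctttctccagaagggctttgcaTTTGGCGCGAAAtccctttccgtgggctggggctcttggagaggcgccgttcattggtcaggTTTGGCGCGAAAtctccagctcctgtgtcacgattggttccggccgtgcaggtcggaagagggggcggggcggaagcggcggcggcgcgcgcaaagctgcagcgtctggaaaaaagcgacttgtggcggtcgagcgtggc
MCM7, chr7:100101348-100101647, minus strand: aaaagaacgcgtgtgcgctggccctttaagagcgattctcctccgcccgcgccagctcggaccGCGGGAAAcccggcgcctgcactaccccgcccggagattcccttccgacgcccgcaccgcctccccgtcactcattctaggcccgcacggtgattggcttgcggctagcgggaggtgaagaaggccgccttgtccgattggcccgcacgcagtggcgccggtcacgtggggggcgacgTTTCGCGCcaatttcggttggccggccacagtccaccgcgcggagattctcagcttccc
PCNA, chr20:5126573-5126872, minus strand: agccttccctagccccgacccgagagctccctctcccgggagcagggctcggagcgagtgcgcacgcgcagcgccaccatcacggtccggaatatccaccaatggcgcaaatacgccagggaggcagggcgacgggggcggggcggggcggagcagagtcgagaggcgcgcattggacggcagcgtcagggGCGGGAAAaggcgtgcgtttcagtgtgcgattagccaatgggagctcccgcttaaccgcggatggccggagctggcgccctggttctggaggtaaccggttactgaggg
GINS2, chr16:85688905-85689204, minus strand: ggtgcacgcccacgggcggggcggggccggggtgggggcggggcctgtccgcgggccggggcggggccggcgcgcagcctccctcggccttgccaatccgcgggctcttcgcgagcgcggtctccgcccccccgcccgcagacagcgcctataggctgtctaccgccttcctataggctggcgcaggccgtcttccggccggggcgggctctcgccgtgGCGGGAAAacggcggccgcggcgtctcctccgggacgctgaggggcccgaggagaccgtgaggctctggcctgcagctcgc
GMNN, chr6:24775163-24775462, plus strand: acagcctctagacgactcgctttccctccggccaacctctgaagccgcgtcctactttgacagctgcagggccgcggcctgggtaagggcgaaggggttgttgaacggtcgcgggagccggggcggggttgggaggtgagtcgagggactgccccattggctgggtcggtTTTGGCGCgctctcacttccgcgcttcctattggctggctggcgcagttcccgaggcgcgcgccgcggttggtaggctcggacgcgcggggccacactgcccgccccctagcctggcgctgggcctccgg
CDC6, chr17:40287629-40287928, plus strand: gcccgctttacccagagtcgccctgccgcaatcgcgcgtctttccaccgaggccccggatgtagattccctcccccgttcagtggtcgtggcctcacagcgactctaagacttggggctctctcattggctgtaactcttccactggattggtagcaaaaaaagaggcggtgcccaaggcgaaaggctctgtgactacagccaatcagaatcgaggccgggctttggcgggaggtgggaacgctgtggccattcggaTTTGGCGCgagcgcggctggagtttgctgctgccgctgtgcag
CDT1, chr16:88803539-88803838, plus strand: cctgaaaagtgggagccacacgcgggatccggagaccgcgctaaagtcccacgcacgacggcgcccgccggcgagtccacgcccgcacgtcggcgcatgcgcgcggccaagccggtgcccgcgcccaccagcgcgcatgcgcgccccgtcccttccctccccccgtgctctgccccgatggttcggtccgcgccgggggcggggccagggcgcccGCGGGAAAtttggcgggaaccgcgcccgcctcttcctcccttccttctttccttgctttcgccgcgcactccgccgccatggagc
In the MCM6 window 4 matches occur as overlapping pairs, at -152 and -148 and again at -90 and -86 relative to the gene's start. The match lies at -80 in the GMNN window, at -59 in the PCNA window and at 7 in the CDC6 window.

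Origin recognition genes were lower or did not pass. ORC1 and ORC2 fell, ORC4 was called lower under some settings only, and ORC3, ORC5 and ORC6 did not pass. ORC1, the ATPase subunit that turns over with the cell cycle, had 140.4, 138 and 144 CPM in 3FM-dC plus THU libraries, against 170.2, 171 and 169 CPM in DMSO libraries. The groups were well apart and tight (log2 fold change -0.27, SE 0.04, edgeR adjusted p = 1.10e-06). ORC2, a core subunit, had 52.2, 44.1 and 51.9 CPM in 3FM-dC plus THU libraries, against 70.0, 66.6 and 64.6 CPM in DMSO libraries, and its highest 3FM-dC plus THU library lay below every DMSO library (log2 fold change -0.44, SE 0.06, edgeR adjusted p = 6.49e-07). ORC4, another ATPase subunit, averaged 64.4 ± 2.73 CPM after 3FM-dC plus THU and 70.8 ± 2.90 CPM after DMSO (SD, n = 3 each) (log2 fold change -0.14, SE 0.06, edgeR adjusted p = 0.0328). Its call was lost without 3FM-dC plus THU replicate 3 (edgeR adjusted p = 0.164), DMSO replicate 1 (0.0623) or DMSO replicate 2 (0.129), with total counts (0.496) and with a minimum of 5 CPM (0.129), over a range of 0.0195 to 1. Ranges of adjusted p, here and below, span all alternative settings. Their upper ends come from the test against a minimum fold change of 1.2, which asks a different question. ORC3 averaged 78.8 ± 5.21 CPM after 3FM-dC plus THU and 84.0 ± 4.44 CPM after DMSO (SD, n = 3 each), ORC5 80.4 ± 1.25 CPM after 3FM-dC plus THU and 84.9 ± 2.94 CPM after DMSO (SD, n = 3 each), and ORC6 43.7 ± 1.12 CPM after 3FM-dC plus THU and 44.6 ± 3.00 CPM after DMSO (SD, n = 3 each); CPM overlapped between the groups for all 3. Without 3FM-dC plus THU replicate 3, ORC3 was lower (edgeR adjusted p = 0.0411, range over the alternatives 0.0411 to 1).

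Of the licensing genes, CDT1 and its inhibitor moved in opposite directions. CDT1, which brings MCM rings to origins, rose while GMNN, the geminin that blocks CDT1 after origins have fired, fell. GMNN had 110.0, 105 and 106 CPM in 3FM-dC plus THU libraries, against 152, 154 and 152 CPM in DMSO libraries. The groups lay far apart and each was tight (log2 fold change -0.51, SE 0.04, edgeR adjusted p = 2.26e-11). CDT1 had 223, 224 and 231 CPM in 3FM-dC plus THU libraries, against 198, 192 and 211 CPM in DMSO libraries, with a smaller gap between the groups (log2 fold change 0.17, SE 0.04, edgeR adjusted p = 0.000516). The ratio of CDT1 to GMNN counts within a library, which needs no scaling, was 2.03, 2.12 and 2.18 in 3FM-dC plus THU libraries and 1.30, 1.25 and 1.39 in DMSO libraries. Its log2 was 1.08 ± 0.05 in 3FM-dC plus THU cells and 0.39 ± 0.08 in DMSO cells (SD, n = 3 each), a difference of 0.69 (two-sided exact permutation p = 0.1, the smallest that 3 against 3 libraries can give). CDC6, the ATPase that completes the loader, had 185, 193 and 184 CPM in 3FM-dC plus THU libraries, against 182, 174 and 179.5 CPM in DMSO libraries. These did not overlap, but the call did not pass (log2 fold change 0.07, SE 0.04, edgeR adjusted p = 0.131). With total counts CDC6 was called higher (0.16, edgeR adjusted p = 0.000749), and with a minimum of 5 CPM as well (0.11, edgeR adjusted p = 0.0152), over a range of 0.000749 to 1.

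All 6 genes of the MCM helicase ring fell, by between 0.16 and 0.44 on the log2 scale. MCM7, the most abundant member per length, had 709.5, 692 and 695 CPM in 3FM-dC plus THU libraries, against 929.8, 935 and 981 CPM in DMSO libraries. All 3FM-dC plus THU libraries lay far below all DMSO libraries (log2 fold change -0.44, SE 0.03, edgeR adjusted p = 8.89e-13). MCM2, a subunit that also binds histones, had 212, 193 and 208 CPM in 3FM-dC plus THU libraries, against 269, 270.1 and 276 CPM in DMSO libraries, again with a clear gap (log2 fold change -0.41, SE 0.04, edgeR adjusted p = 4.53e-10). MCM4, a subunit of the catalytic core, had 467, 443 and 454 CPM in 3FM-dC plus THU libraries, against 601, 605 and 587 CPM in DMSO libraries. Its libraries differed by far less within a group than between groups (log2 fold change -0.39, SE 0.03, edgeR adjusted p = 2.61e-11). MCM6, whose window holds the paired E2F letters above, had 265, 257 and 264 CPM in 3FM-dC plus THU libraries, against 325, 346 and 323 CPM in DMSO libraries (log2 fold change -0.34, SE 0.04, edgeR adjusted p = 5.76e-09). MCM3 averaged 291 ± 2.04 CPM after 3FM-dC plus THU and 347 ± 5.0 CPM after DMSO (SD, n = 3 each) (log2 fold change -0.26, SE 0.03, edgeR adjusted p = 2.60e-07). MCM5, which with MCM2 forms the gate of the ring, had 176, 175 and 185 CPM in 3FM-dC plus THU libraries, against 199, 190.0 and 211 CPM in DMSO libraries. This was the smallest fall of the 6, and the groups only just failed to overlap (log2 fold change -0.16, SE 0.04, edgeR adjusted p = 0.00147). The MCM5 call was lost with total counts (-0.07, edgeR adjusted p = 0.128), over a range of 7.76e-05 to 1.

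Per length the ring genes were far from equal. Divided by kilobases of annotated exons, MCM7 had 159 ± 2.15 CPM per kb after 3FM-dC plus THU and 216 ± 6.45 after DMSO (SD, n = 3 each). MCM3, MCM4 and MCM6 followed, at 79.7 ± 0.559, 65.2 ± 1.69 and 63.6 ± 1.09 CPM per kb after 3FM-dC plus THU and 95.2 ± 1.37, 85.7 ± 1.38 and 80.5 ± 3.08 after DMSO. MCM4 and MCM6 were within their spread of each other after 3FM-dC plus THU. MCM2 and MCM5 were lowest, at 41.7 ± 2.08 and 24.4 ± 0.759 CPM per kb after 3FM-dC plus THU and 55.4 ± 0.783 and 27.3 ± 1.40 after DMSO. The order of the 6 was the same in both groups. These levels rest on all exons of GENCODE release 29, used or not in K562.

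**Figure D2:**
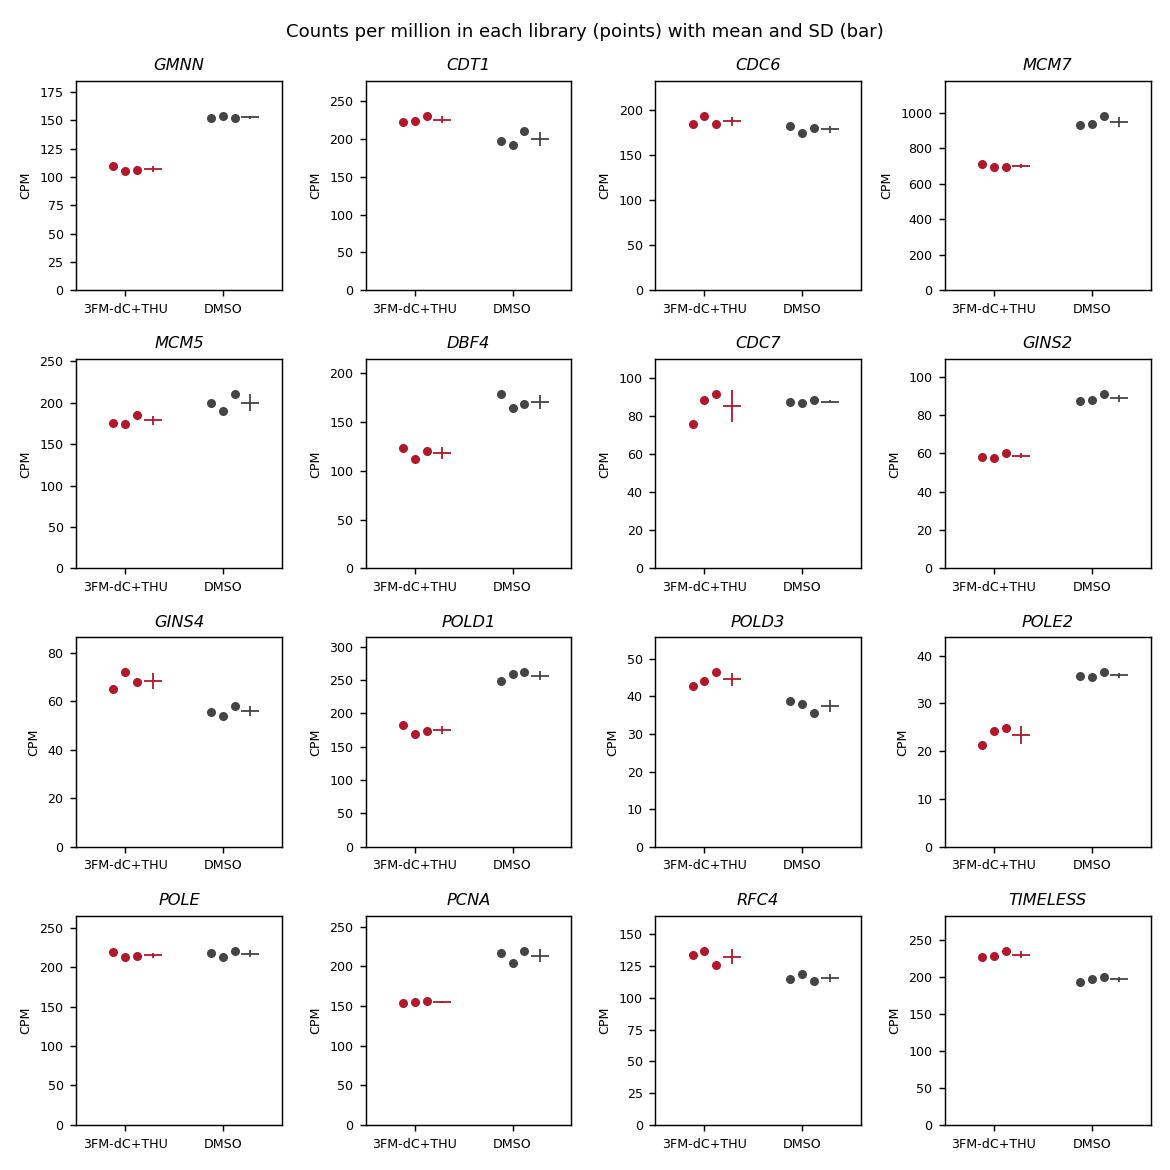
CPM of 16 replication genes in each library, with y axes from 0; red points are 3FM-dC plus THU libraries, dark points DMSO libraries, and the bar beside them is the mean and SD of 3. GMNN, MCM7, DBF4, GINS2, POLD1, POLE2 and PCNA sit lower after 3FM-dC plus THU, CDT1, GINS4, POLD3, RFC4 and TIMELESS slightly higher. MCM5 and CDC6 are apart by little, and CDC7 and POLE overlap.

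Of the factors that fire a licensed origin, the regulatory subunit fell and its kinase did not pass. DBF4, which activates the kinase CDC7, had 123, 112 and 120.3 CPM in 3FM-dC plus THU libraries, against 178, 164 and 168 CPM in DMSO libraries. Its groups did not come near each other (log2 fold change -0.52, SE 0.05, edgeR adjusted p = 6.77e-11). CDC7 itself had 75.9, 88.4 and 91.6 CPM in 3FM-dC plus THU libraries, against 87.2, 86.9 and 88.5 CPM in DMSO libraries, with overlapping groups and the wider spread among 3FM-dC plus THU libraries (log2 fold change -0.04, SE 0.06, edgeR adjusted p = 0.593). MCM10, which helps activate the helicase, fell as well, and averaged 95.5 ± 2.82 CPM after 3FM-dC plus THU and 115 ± 2.70 CPM after DMSO (SD, n = 3 each) (log2 fold change -0.27, SE 0.05, edgeR adjusted p = 8.64e-06). CDC45, a part of the moving helicase, had 307, 306 and 298 CPM in 3FM-dC plus THU libraries, against 334, 319.5 and 334 CPM in DMSO libraries. That fall was small (log2 fold change -0.12, SE 0.04, edgeR adjusted p = 0.00609) and its call was lost with total counts (edgeR adjusted p = 0.558) and with a minimum of 5 CPM (0.0659), over a range of 0.00154 to 1.

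GINS is a complex of 4 small subunits that binds CDC45 and the MCM ring, and its genes moved apart. GINS2 had 58.2, 57.8 and 60.3 CPM in 3FM-dC plus THU libraries, against 87.3, 87.9 and 91.0 CPM in DMSO libraries. The groups were widely separated (log2 fold change -0.59, SE 0.05, edgeR adjusted p = 4.27e-11). GINS1 had 46.9, 39.9 and 44.8 CPM in 3FM-dC plus THU libraries, against 56.7, 59.6 and 53.5 CPM in DMSO libraries, and was also lower (log2 fold change -0.37, SE 0.07, edgeR adjusted p = 1.87e-05). GINS4 went the other way, with 65.1, 72.0 and 68.2 CPM in 3FM-dC plus THU libraries, against 55.4, 54.0 and 58.1 CPM in DMSO libraries, and all 3FM-dC plus THU libraries were above all DMSO libraries (log2 fold change 0.29, SE 0.06, edgeR adjusted p = 5.55e-05). GINS3 averaged 36.6 ± 0.609 CPM after 3FM-dC plus THU and 38.3 ± 3.33 CPM after DMSO (SD, n = 3 each), with overlapping groups (log2 fold change -0.06, SE 0.07, edgeR adjusted p = 0.433).

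Among the polymerases, genes of a single enzyme had different calls. In polymerase alpha with primase, POLA1, the catalytic subunit, had 107, 94.5 and 104 CPM in 3FM-dC plus THU libraries, against 121, 122 and 118 CPM in DMSO libraries, and was lower (log2 fold change -0.24, SE 0.05, edgeR adjusted p = 8.48e-05). POLA2, its regulatory subunit, averaged 74.0 ± 3.56 CPM after 3FM-dC plus THU and 72.8 ± 4.17 CPM after DMSO (SD, n = 3 each) (edgeR adjusted p = 0.749). PRIM1, which makes the RNA primer, had 108, 108 and 108 CPM in 3FM-dC plus THU libraries, against 110.3, 111 and 109 CPM in DMSO libraries. The groups did not overlap, and the difference did not pass (log2 fold change -0.03, SE 0.04, edgeR adjusted p = 0.626). PRIM2 averaged 45.1 ± 0.812 CPM after 3FM-dC plus THU and 48.3 ± 3.64 CPM after DMSO (SD, n = 3 each) (edgeR adjusted p = 0.179); without DMSO replicate 2 it was called lower (0.0490, range 0.0490 to 1).

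Polymerase delta, which extends the lagging strand, showed both directions. POLD1, its catalytic subunit, had 182, 169 and 174 CPM in 3FM-dC plus THU libraries, against 249, 258 and 262 CPM in DMSO libraries. Its groups were far apart (log2 fold change -0.55, SE 0.04, edgeR adjusted p = 8.73e-13). POLD2, which bridges the subunits, had 210.1, 196 and 207 CPM in 3FM-dC plus THU libraries, against 233, 246 and 244 CPM in DMSO libraries, and fell less (log2 fold change -0.24, SE 0.04, edgeR adjusted p = 6.26e-06). POLD3, the subunit with a PCNA-binding tail, had 42.9, 44.2 and 46.4 CPM in 3FM-dC plus THU libraries, against 38.7, 38.1 and 35.5 CPM in DMSO libraries, with all 3FM-dC plus THU libraries above all DMSO libraries (log2 fold change 0.25, SE 0.07, edgeR adjusted p = 0.00135). Of polymerase epsilon, which extends the leading strand, the accessory subunit POLE2 had 21.2, 24.2 and 24.9 CPM in 3FM-dC plus THU libraries, against 35.8, 35.5 and 36.5 CPM in DMSO libraries. The groups lay far apart (log2 fold change -0.61, SE 0.08, edgeR adjusted p = 4.96e-08). POLE, the catalytic subunit, had 219, 213 and 214 CPM in 3FM-dC plus THU libraries, against 218, 212 and 221 CPM in DMSO libraries, and these overlapped (log2 fold change -0.01, SE 0.04, edgeR adjusted p = 0.772).

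The clamp fell and its loader was split. PCNA, the sliding ring that tethers polymerases to DNA, had 154, 155 and 156 CPM in 3FM-dC plus THU libraries, against 217, 205 and 220.1 CPM in DMSO libraries. Its 3FM-dC plus THU libraries were nearly identical and all lay below the DMSO libraries (log2 fold change -0.46, SE 0.04, edgeR adjusted p = 5.40e-11). Among the loader genes, RFC3 had 75.8, 70.6 and 73.5 CPM in 3FM-dC plus THU libraries, against 92.8, 91.9 and 96.5 CPM in DMSO libraries. RFC5 had 89.1, 80.9 and 83.3 CPM in 3FM-dC plus THU libraries, against 104, 103 and 105 CPM in DMSO libraries. Both fell without overlap, RFC3 by 0.36 (SE 0.05, edgeR adjusted p = 4.67e-07) and RFC5 by 0.30 (SE 0.05, edgeR adjusted p = 4.36e-06) on the log2 scale. RFC4, a core subunit of the same ring of small subunits, rose, with 134, 137 and 126 CPM in 3FM-dC plus THU libraries, against 115, 119 and 113 CPM in DMSO libraries (log2 fold change 0.20, SE 0.05, edgeR adjusted p = 0.000489). RFC2 averaged 115 ± 2.04 CPM after 3FM-dC plus THU and 124 ± 3.10 CPM after DMSO (SD, n = 3 each) and was called lower (log2 fold change -0.11, SE 0.04, edgeR adjusted p = 0.0312). The RFC2 call was lost without 3FM-dC plus THU replicate 3 (edgeR adjusted p = 0.101), DMSO replicate 1 (0.0616) or DMSO replicate 2 (0.105), with total counts (0.729) and with a minimum of 5 CPM (0.168), over a range of 0.0175 to 1. RFC1, the large subunit, had 138, 145 and 135 CPM in 3FM-dC plus THU libraries, against 129, 130.1 and 133 CPM in DMSO libraries. It did not pass (log2 fold change 0.09, SE 0.04, edgeR adjusted p = 0.0631), and was called higher with total counts (0.18, edgeR adjusted p = 0.000442) and with a minimum of 5 CPM (0.13, edgeR adjusted p = 0.00766), over a range of 0.000442 to 1.

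RPA coats single-stranded DNA at the fork, and of its 3 subunits the middle one fell. RPA2 had 141, 146 and 143 CPM in 3FM-dC plus THU libraries, against 175, 182 and 183 CPM in DMSO libraries, without overlap (log2 fold change -0.33, SE 0.04, edgeR adjusted p = 5.46e-08). RPA1, which holds most of the DNA contacts, averaged 183 ± 5.01 CPM after 3FM-dC plus THU and 192 ± 2.29 CPM after DMSO (SD, n = 3 each) (log2 fold change -0.07, SE 0.04, edgeR adjusted p = 0.115), and RPA3 44.1 ± 3.46 CPM after 3FM-dC plus THU and 42.9 ± 2.77 CPM after DMSO (SD, n = 3 each) (log2 fold change 0.04, SE 0.07, edgeR adjusted p = 0.655). Without 3FM-dC plus THU replicate 1, RPA1 was called lower (edgeR adjusted p = 0.0442, range 0.0442 to 1). FEN1, the nuclease that trims the flaps of lagging-strand fragments, had 223, 208 and 213 CPM in 3FM-dC plus THU libraries, against 274, 271 and 279.5 CPM in DMSO libraries. Its groups did not overlap (log2 fold change -0.36, SE 0.04, edgeR adjusted p = 3.10e-09). LIG1, the ligase that seals the trimmed ends, had 96.3, 94.99 and 91.6 CPM in 3FM-dC plus THU libraries, against 96.5, 101 and 102 CPM in DMSO libraries, a difference that did not pass (log2 fold change -0.08, SE 0.05, edgeR adjusted p = 0.130).

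Behind the fork, CAF-1 deposits new histones. CHAF1A, its large subunit, had 124, 118 and 115 CPM in 3FM-dC plus THU libraries, against 143, 143 and 144 CPM in DMSO libraries. DMSO libraries were nearly identical and all above the 3FM-dC plus THU libraries (log2 fold change -0.27, SE 0.04, edgeR adjusted p = 4.25e-06). CHAF1B averaged 73.7 ± 4.15 CPM after 3FM-dC plus THU and 71.7 ± 1.40 CPM after DMSO (SD, n = 3 each), with overlapping groups (log2 fold change 0.04, SE 0.05, edgeR adjusted p = 0.518); with total counts it was called higher (0.13, edgeR adjusted p = 0.0334, range 0.0334 to 1).

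Genes of the fork protection complex, which keeps helicase and polymerase coupled, also went both ways. TIMELESS had 228, 228 and 236 CPM in 3FM-dC plus THU libraries, against 193, 198 and 200.4 CPM in DMSO libraries, all 3FM-dC plus THU libraries being above all DMSO libraries (log2 fold change 0.23, SE 0.04, edgeR adjusted p = 7.60e-06). Its partner TIPIN averaged 34.8 ± 0.946 CPM after 3FM-dC plus THU and 37.7 ± 0.506 CPM after DMSO (SD, n = 3 each) and did not pass (log2 fold change -0.11, SE 0.07, edgeR adjusted p = 0.135). CLSPN, claspin, the mediator between stalled forks and the checkpoint kinase CHEK1, had 155, 138 and 152 CPM in 3FM-dC plus THU libraries, against 163, 176 and 162 CPM in DMSO libraries, and was lower (log2 fold change -0.17, SE 0.05, edgeR adjusted p = 0.00187). That call was lost with total counts (edgeR adjusted p = 0.106), over a range of 6.68e-05 to 1.

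Ratios of raw counts within a library, which depend on no scaling, show how far apart genes of a complex moved. In each complex the gene with the lowest fold change was set over the gene with the highest, so these pairs were chosen for their difference and are given without a test. The licensing pair is GMNN and CDT1, whose ratio and exact test stand above. GINS2 to GINS4 was 0.894, 0.802 and 0.885 in 3FM-dC plus THU libraries and 1.58, 1.63 and 1.57 in DMSO libraries. POLD1 to POLD3 was 4.24, 3.83 and 3.75 after 3FM-dC plus THU and 6.43, 6.78 and 7.36 after DMSO. PCNA to RFC4 was 1.15, 1.13 and 1.24 after 3FM-dC plus THU and 1.88, 1.72 and 1.95 after DMSO. POLE2 to POLE was 0.0971, 0.113 and 0.116 after 3FM-dC plus THU and 0.164, 0.167 and 0.165 after DMSO. DBF4 to CDC7 was 1.63, 1.26 and 1.31 after 3FM-dC plus THU and 2.04, 1.89 and 1.90 after DMSO. The log2 shift of POLA1 to POLA2 was -0.27, among the smallest of the 13 pairs. Within the MCM ring, MCM7 to MCM5 was 4.03, 3.95 and 3.75 after 3FM-dC plus THU and 4.66, 4.92 and 4.66 after DMSO.

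**Figure D3:**
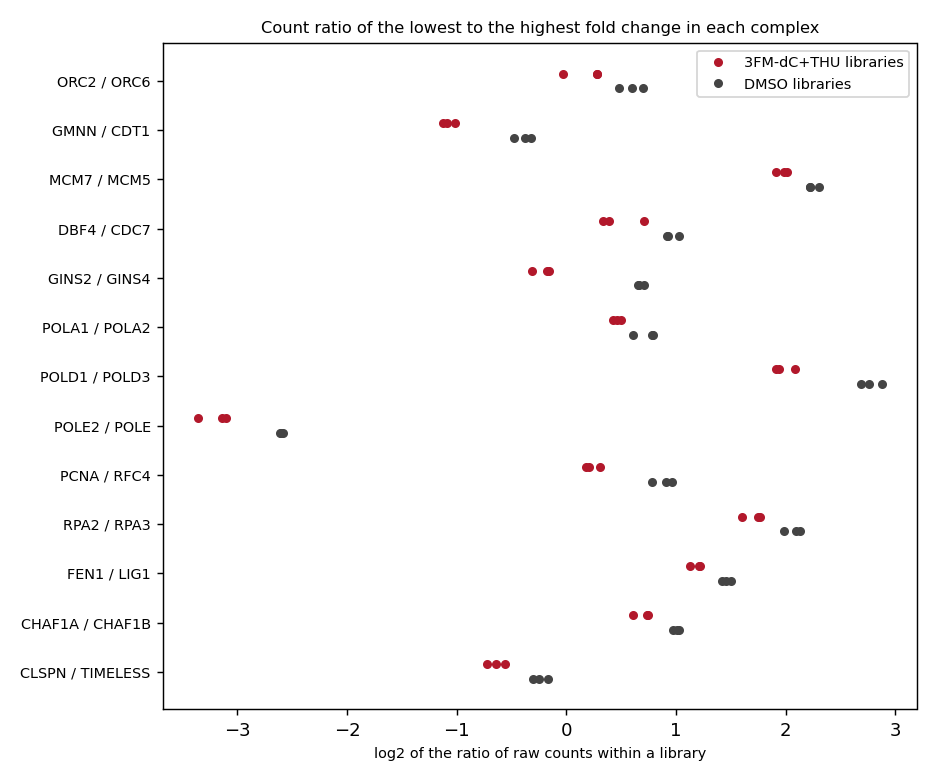
Log2 of the ratio of raw counts of a gene pair within each library, for the lowest and the highest fold change in each of 13 complexes; red points are 3FM-dC plus THU libraries and dark points DMSO libraries. The widest gap is that of GINS2 to GINS4 (-0.22 against 0.67 on average), and the pairs were chosen for their difference.

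Summed over each complex with TMM scaling, and without a test, mean CPM was lower after 3FM-dC plus THU in 12 of 13 groups of genes, of which 11 did not overlap. With total counts it was lower in 10 of 13. The 6 MCM genes summed to 2122, 2051 and 2094 CPM in 3FM-dC plus THU libraries and 2674, 2688 and 2729 CPM in DMSO libraries, a mean difference of -22.5%. The 3 polymerase delta genes summed to 435, 409 and 427 CPM after 3FM-dC plus THU and 521, 542 and 542 CPM after DMSO (-20.7%). FEN1 and LIG1 together differed by -17.6%, the firing factors by -14.1%, GINS by -13.3% and the origin recognition complex by -12.3%. The licensing factors, of which GMNN fell and CDT1 rose, differed by -2.17% with overlapping libraries. The fork protection genes summed higher after 3FM-dC plus THU, by 2.92%, with 417, 401 and 424 CPM against 393, 412 and 400.3 CPM in DMSO libraries, and these overlapped. With total counts the licensing factors differed by 4.20% and the fork protection genes by 9.60%, all 3FM-dC plus THU libraries being the higher. Polymerase epsilon then differed by 0.398% and polymerase alpha with primase by -0.357%, both with overlapping libraries.

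Other genes of replication, listed apart from the 48, were more often lower than higher with TMM scaling. Of 36 listed and tested, 17 (47.2%) were lower and 9 (25.0%) higher, against 32.7% and 33.8% of all genes tested, with a median log2 fold change of -0.10. With total counts 10 were lower and 11 higher, against 25.8% and 41.0% of all genes at that scaling. Tested against a minimum fold change of 1.2, 4 of the 36 were lower and 2 higher, against 17.2% and 21.4% of all genes. SKP2, which marks CDT1 for destruction, had 89.5, 74.7 and 84.1 CPM in 3FM-dC plus THU libraries, against 126, 135 and 126 CPM in DMSO libraries (log2 fold change -0.64, SE 0.06, edgeR adjusted p = 3.02e-11). ASF1A, a histone chaperone that hands histones to CAF-1, had 50.7, 56.8 and 60.1 CPM in 3FM-dC plus THU libraries, against 79.8, 77.1 and 78.0 CPM in DMSO libraries, and was lower (log2 fold change -0.48, SE 0.06, edgeR adjusted p = 3.07e-08). The histone chaperone subunit SUPT16H had 244, 225 and 231 CPM in 3FM-dC plus THU libraries, against 317, 323 and 320.1 CPM in DMSO libraries, and was lower (log2 fold change -0.46, SE 0.04, edgeR adjusted p = 1.80e-11). POLD4, the smallest subunit of polymerase delta, had 23.5, 28.8 and 22.6 CPM in 3FM-dC plus THU libraries, against 14.4, 16.2 and 15.3 CPM in DMSO libraries, all 3FM-dC plus THU libraries being the higher (log2 fold change 0.70, SE 0.10, edgeR adjusted p = 3.93e-07). Several relatives of members or of listed genes, chosen after their values were seen, also had calls. DTL, of the same list as SKP2, was higher (log2 fold change 0.17, SE 0.04, edgeR adjusted p = 0.000889). ASF1B, the paralogue of ASF1A, rose, with 107 ± 4.56 CPM after 3FM-dC plus THU and 88.5 ± 1.40 CPM after DMSO (SD, n = 3 each) (log2 fold change 0.28, SE 0.05, edgeR adjusted p = 1.04e-05). Of the other epsilon subunits, POLE3 averaged 165 ± 7.46 CPM after 3FM-dC plus THU and 222 ± 6.31 CPM after DMSO (SD, n = 3 each) and was lower (log2 fold change -0.43, SE 0.04, edgeR adjusted p = 4.69e-10), while POLE4 averaged 28.6 ± 0.686 CPM after 3FM-dC plus THU and 29.2 ± 2.44 CPM after DMSO (SD, n = 3 each) (edgeR adjusted p = 0.733). DBF4B, another activator of CDC7, rose with 46.9 ± 2.99 CPM after 3FM-dC plus THU and 38.2 ± 1.87 CPM after DMSO (SD, n = 3 each) (log2 fold change 0.30, SE 0.07, edgeR adjusted p = 0.000273), against the fall of DBF4.

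Genes of the E2F and RB network, which time the expression of replication genes, were divided. Of 18 listed and tested, 7 (38.9%) were lower and 5 (27.8%) higher, against 32.7% and 33.8% of all genes tested, with a median log2 fold change of 0.02. With total counts 5 were lower and 9 higher, against 25.8% and 41.0% of all genes at that scaling. E2F4, a mostly repressive E2F, had 115, 104 and 106 CPM in 3FM-dC plus THU libraries, against 158, 153 and 162 CPM in DMSO libraries, and was lower (log2 fold change -0.54, SE 0.05, edgeR adjusted p = 2.92e-11). The weakly expressed E2F5, another mostly repressive E2F, had 8.91, 8.47 and 7.78 CPM in 3FM-dC plus THU libraries, against 13.4, 13.6 and 11.0 CPM in DMSO libraries (log2 fold change -0.59, SE 0.13, edgeR adjusted p = 0.000181). Of the MuvB core, which joins RB family proteins at cell cycle promoters, LIN37 had 9.73, 11.0 and 9.60 CPM in 3FM-dC plus THU libraries, against 7.16, 7.12 and 5.45 CPM in DMSO libraries, and rose (log2 fold change 0.63, SE 0.14, edgeR adjusted p = 0.000377). LIN52, of the same core, had 5.73, 4.19 and 5.71 CPM in 3FM-dC plus THU libraries, against 8.32, 6.78 and 7.71 CPM in DMSO libraries, and was lower (log2 fold change -0.55, SE 0.17, edgeR adjusted p = 0.00508). The genes that follow were chosen after their values were seen. TFDP1, the DNA-binding partner of E2F factors, averaged 163 ± 3.19 CPM after 3FM-dC plus THU and 229 ± 4.48 CPM after DMSO (SD, n = 3 each) and fell by 0.49 on the log2 scale. E2F1, an activator, had 38.6, 41.8 and 39.2 CPM in 3FM-dC plus THU libraries, against 32.1, 35.9 and 35.7 CPM in DMSO libraries, and rose (log2 fold change 0.21, SE 0.07, edgeR adjusted p = 0.0107). E2F7, a repressor induced in S phase, rose by 0.37, RBL1 (p107) by 0.29 and RB1 by 0.27 on the log2 scale. Relatives of these genes went otherwise. E2F2 (log2 fold change -0.21, edgeR adjusted p = 0.00628) and E2F8 (-0.22, edgeR adjusted p = 0.00718) fell. E2F3 (edgeR adjusted p = 0.444) and RBL2 (0.705) did not pass. MYBL2, itself an E2F target, averaged 333 ± 21.9 CPM after 3FM-dC plus THU and 332 ± 4.70 CPM after DMSO (SD, n = 3 each) (edgeR adjusted p = 0.981).

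**Figure D4:**
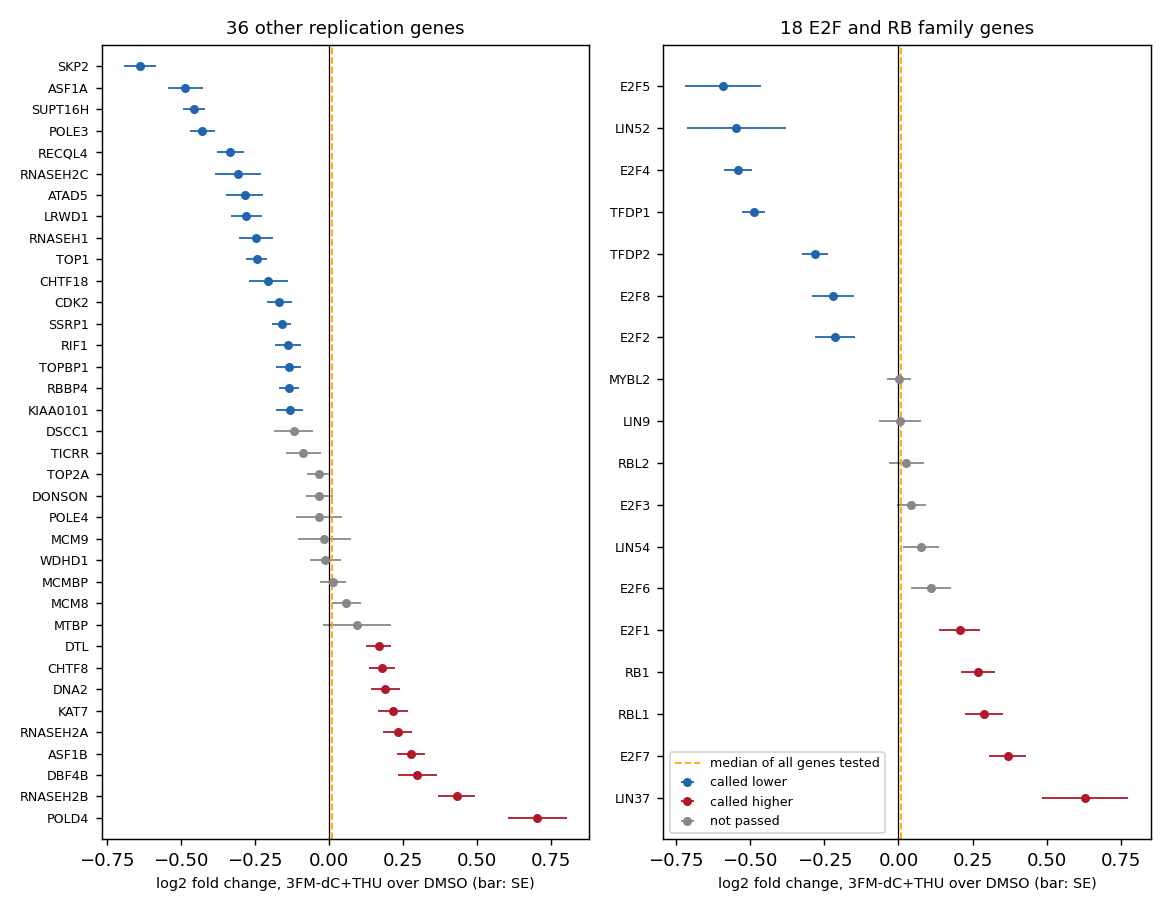
Log2 fold change, 3FM-dC plus THU over DMSO (x axis, bars are SE), of 36 further replication genes (left) and 18 E2F and RB family genes (right), sorted from low to high. Blue points were called lower, red higher and grey did not pass; SKP2 (-0.64) and POLD4 (0.70) mark the ends of the left panel.

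The authors' deposited table, which gives a fold ratio of group B over group A without naming the groups, lists all 48 members. In the authors' deposited table, a total of 27 had a ratio below 1 and 5 a ratio above 1 at an adjusted p under 0.05, with POLE2 at 0.646 and GINS4 at 1.21. The fold ratio of 3FM-dC plus THU over DMSO found here was 0.653 for POLE2 and 1.225 for GINS4. The shares over all genes of that table were not worked out. The series holds only these 6 libraries, so the counts are not separate evidence.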

How the data were processed

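Poly(A) RNA libraries from K562 cells were made with a directional kit from 1000 ng of RNA, per the labels' protocols. The deposited values are raw counts per gene symbol. STAR, Cufflinks, DESeq2 and build hg19 are listed in the submitters' processing notes without roles; for the counting program, its strand setting and its annotation the sources used here name nothing. The authors' deposited table also holds a fold ratio and adjusted p-values from their own comparison, printed only where named. The 5 rows for unassigned reads, 13.2% to 15.3% of each library's counts, were left out.

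The 48 members and the further lists were chosen with earlier results of these data known. All members are named; per-library values are given for called members by size and p-value rank in each complex, for all called higher, and for the 4 largest called changes in each further list. Further members were given per-library values after their values were seen. Libraries were compared with edgeR 4.0.16 in R 4.3.3 (filterByExpr with a count minimum of 10, TMM, quasi-likelihood test, Benjamini-Hochberg over 12339 genes, threshold 0.05), 3 libraries against 3. The lowest count of a member in a library was 415, and 3 counts correspond to between 0.132 and 0.163 CPM. Replicates differed beyond sampling noise, so each counted as 1 sample. Alternatives were total-count scaling, RLE size factors, DESeq2 1.42.0, no count filter, a mean of at least 5 CPM, a minimum fold change of 1.2, a replicate block and leaving out each library. Within-complex count ratios and complex sums by total counts were added after seeing the data. Exon lengths and overlaps came from GENCODE release 29 (GRCh38) by symbol, and promoter windows from RefSeq (GRCh38.p14).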

Additional observations from a re-analysis of the deposited data

How the results depend on the processing

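RLE size factors, DESeq2, no count filter and the replicate block each gave 27 members lower and 5 higher, with the call of all 48 members as in the report. DESeq2 called 31.7% of all genes lower and 31.7% higher. For the other fits of these, the shares of all genes are not given. Without a count filter 17781 genes were tested in place of 12339. Same-numbered libraries did not deviate together (correlations -0.01, 0.00 and -0.06). These values cannot show whether same-numbered samples were handled together, and the labels do not say. With the replicate block no member's call changed. The log2 CDT1 to GMNN difference of 0.69 is the same with or without a block by arithmetic, so it is no check. Leaving out each library gave 25 to 28 members lower and 5 higher, a median of -0.17 to -0.14 and a CDT1 to GMNN difference of 0.65 to 0.73. The shares of all genes called without a library are not given.

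With 1.2 as the smallest fold change of interest, 15 members were lower and 0 higher, against 17.2% and 21.4% of all genes tested. Of the 36 other replication genes 4 were lower and 2 higher, and of the 18 E2F and RB genes 4 were lower and 2 higher. At this threshold, itself stricter, 17 members lost their call. Total-count scaling moved the median of all genes from 0.01 to 0.10 and that of the members to -0.06. It gave 8 members higher, 10 other replication genes lower and 9 E2F and RB genes higher, where 25.8% of all genes were lower and 41.0% higher. Members not called changed sign with it, to 0.00 for ORC3, 0.01 for ORC5 and LIG1, 0.02 for RPA1, 0.03 for GINS3, 0.06 for ORC6 and CDC7, 0.07 for PRIM1 and 0.08 for POLE. With a mean of at least 5 CPM the values were 0.01 for ORC6 and CDC7, 0.02 for PRIM1 and 0.03 for POLE. Leaving out a library changed the sign of POLA2 (-0.02 to 0.07), CDC7 (-0.09 to 0.04), CHAF1B (0.00 to 0.08) and RPA3 (-0.03 to 0.09), none of them called. TMM factors were 1.025 to 1.041 in 3FM-dC plus THU libraries and 0.9687 to 0.9695 in DMSO libraries. By arithmetic, total counts therefore raise the log2 fold change of every gene. The cause of the other sign changes was not tested. Members had at least 415 counts each in every library; the SE of the log2 fold change was 0.08 for POLE2, which had the fewest counts, and 0.03 for MCM7.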

Other observations

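Members with higher levels in DMSO cells tended to have lower fold changes, with a Spearman rho of -0.30 between DMSO level and log2 fold change over the 48 members, and -0.43 over the 12339 genes tested. Both are descriptions across genes, which are not independent replicates, and the DMSO libraries enter both measures.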
